A study of Bos taurus with 18 samples.

Results

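The HOX genes of bovine dermal fibroblasts were described in 18 RNA-seq libraries from cultures of young and older heifers exposed to lipopolysaccharide (LPS). Members were all gene windows whose symbol is HOXA, HOXB, HOXC or HOXD followed by a number, which gave 34 of the 27550 gene windows in the files. The HOXA cluster holds 10 of them on chromosome 4, and the HOXB, HOXC and HOXD clusters hold 8 each on chromosomes 19, 5 and 2. A gene window is a stretch of the UMD 3.1 cattle assembly that spans a gene with its introns.

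HOX genes encode homeobox transcription factors that specify position along the head-to-tail axis of the embryo and along the limbs. They lie in 4 clusters, and their order on the chromosome follows the order in which they are used, so that low-numbered (anterior) genes act towards the head and high-numbered (posterior) genes towards the tail and the tips of the limbs. Genes with the same number in different clusters, called paralogs, descend from a common ancestor and overlap in function. Fibroblasts of adult skin keep a pattern of HOX transcripts that differs between body sites and persists in culture. Polycomb proteins keep unused HOX genes silent, Trithorax proteins keep used ones active, and the TALE homeobox proteins, such as the MEIS family, bind DNA together with HOX proteins.

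The cultures came from skin of 3 Holstein heifers, each sampled at 5 months and again at 16 months of age, which gave 6 cultures. Every culture was exposed to 100 ng/ml of LPS, which comes from the outer membrane of bacteria, and RNA was taken at 0, 2 and 8 h, so each of the 6 groups held 3 libraries numbered by animal. Cells were expanded in a flask and challenged in a pair of wells whose lysates were pooled, and libraries were made from poly-A RNA. Each age of an animal was represented by 1 culture, the body site of the biopsy was not given in the sources used here, and no culture without LPS was analysed at 2 h or 8 h, so that LPS, time and handling cannot be told apart.

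Libraries held between 41064293 and 108597957 reads, and 1 CPM (a gene-window count scaled to the usual library total) stood for 51.5 to 129 reads. A gene with 0 reads in a library could still have been present at up to 0.0233 to 0.0583 CPM, the level of 3 reads, by counting error alone. One library stood apart: in the 16-month culture of animal 3 at 2 h the standard deviation (SD) of log2 deviations from the other libraries was 1.30, against 0.25 to 0.42 in the other 17, so 2 h results are given with and without it. All 14 fibroblast markers were at 1 CPM or more, with summed levels of 39608 to 115196 CPM, or at least 74647 CPM outside the 16-month libraries at 2 h. None of 8 keratinocyte markers reached a mean of 1 CPM, and their sum stayed between 1.20 and 3.14 CPM. Summed macrophage markers lay between 1.50 and 3.83 CPM and endothelial ones between 1.87 and 4.13 CPM. Melanocyte and Schwann markers summed to 13.2 to 23.7 CPM, and 3 of 9 reached a mean of 1 CPM. Smooth muscle markers, several of which activated fibroblasts also express, summed to 4244 to 10843 CPM. In such bulk samples, fewer cells that use a gene and less RNA per cell cannot be told apart.

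The fibroblasts used HOX genes from the middle of the clusters, and most of the signal came from HOXC. Of the 34 windows, 18 had a mean of at least 1 CPM over the 18 libraries, 8 lay between 0.1 and 1 CPM and 8 lay under 0.1 CPM. By cluster, 6 of 8 HOXB and 6 of 8 HOXC windows reached a mean of 1 CPM, as did 4 of 8 HOXD and 2 of 10 HOXA windows. HOXC8, a gene of the thoracic trunk, was the highest, with a mean of 62.3 CPM and a range of 42.0 to 77.7 CPM, and it alone held 38.8% of all HOX counts. HOXC6 followed with a mean of 23.4 CPM, then HOXB2, a gene of the hindbrain and neck, with 11.6 CPM.

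Levels of different genes can be compared only per length, here as CPM per kb of gene window, which is approximate because the windows include introns. On that scale HOXC8 stood at 17.7, HOXC6 at 9.66 and HOXC4 at 4.60 CPM per kb, the 3 highest of their cluster. In HOXB the 3 highest were HOXB2 with 5.12, HOXB3 with 1.83 and HOXB4 with 1.83 CPM per kb, and the last pair did not differ beyond their spread. In HOXD they were HOXD8 with 3.85, HOXD9 with 1.60 and HOXD4 with 0.765 CPM per kb. The leading HOXA genes were lower, with HOXA9 at 0.876, HOXA7 at 0.516 and HOXA5 at 0.371 CPM per kb.

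**Figure D1:**
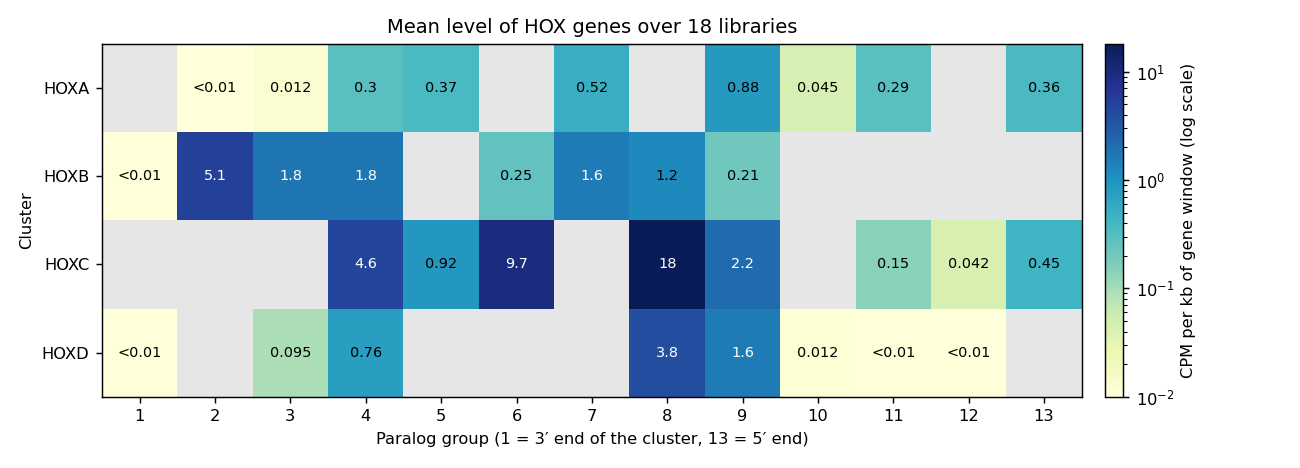
Mean level of HOX windows over 18 libraries, in CPM per kb on a logarithmic colour scale, with the 4 clusters as rows and the paralog number as columns; grey marks a position with no window of that symbol or none shown here. Colour is strongest at HOXC8, HOXC6, HOXB2 and HOXC4, and pale for paralogs 1, 10 and 12 wherever one is drawn.

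Added over a library, the HOXC cluster took 62.5% ± 4.37 (SD, n = 18) of the per-length HOX level, HOXB 21.4% ± 4.18, HOXD 11.1% ± 1.47 and HOXA 4.91% ± 1.56. Paralogs 4 to 9 together held 85.0% of that level, paralogs 1 to 3 held 12.6% and paralogs 10 to 13 held 2.40%. All 8 windows with a mean under 0.1 CPM lay among paralogs 1 to 3 and 10 to 13. HOXD12 had 0 reads in every library, and HOXA2, HOXB1, HOXD1, HOXD10, HOXD11 and HOXC12 were among those with means under 0.1 CPM. Per length, the higher of the posterior genes were HOXC13, a gene of hair follicles and nails, with 0.448 CPM per kb, and HOXA13 and HOXA11, genes of the hand or foot and of the forearm, with 0.362 and 0.291 CPM per kb. HOXC11 stood at 0.148 and HOXA10 at 0.0453 CPM per kb. At the anterior end HOXB2 and HOXB3 were far above HOXD3 with 0.0946 and HOXA3 with 0.0120 CPM per kb. The order of the 34 windows by CPM was much the same in all libraries, with a Spearman rho of 0.906 to 0.991 between pairs of libraries, or 0.943 to 0.991 without the library that stood apart. These rhos are over genes that share one annotation and differ widely in level, and are given as a description.

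A gene-by-gene reading of the map depends on the names in the files. A later cattle annotation lists 39 HOX symbols, 34 of which the files also use. By gene number, 4 more windows carry other names: LOC100848736 is HOXA6, LOC539688 is HOXB13, LOC100847795 is HOXC10 and LOC100336775 is HOXD13. No window matched HOXB5. HOXC10, a gene of the lumbar trunk and hindlimb, had a mean of 3.40 CPM, or 0.238 CPM per kb. HOXD13 had 0.0239 CPM and HOXB13 had 0 reads. The shares and the map above hold only the 34 windows with a HOX symbol, so these 4 windows are not in them. Windows of 4 members overlap another gene window, namely HOXA3, HOXA4, HOXB3 and HOXC5, and their reads cannot be assigned with certainty.

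Age was compared within animals, at each time, to ask whether the positional pattern held between 5 and 16 months. Summed HOX levels overlapped between the ages at 0 h. They were 172, 167 and 183 CPM in the 5-month cultures of animals 1, 2 and 3, and 186, 161 and 176 CPM in their 16-month cultures. The HOXA cluster stood lower at 16 months. Its summed level was 10.9, 10.7 and 10.9 CPM in the 5-month cultures at 0 h and 5.96, 6.52 and 6.61 CPM in the 16-month cultures. At 8 h it was 11.8, 9.47 and 10.5 CPM against 6.79, 8.11 and 7.35 CPM. The ages did not overlap at either time. As a share of the per-length HOX level, HOXA made up 6.20% ± 0.122 (SD, n = 3) at 5 months and 3.75% ± 0.321 at 16 months at 0 h, and 7.22% ± 0.355 and 4.92% ± 0.863 at 8 h.

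Single genes were tested with the quasi-likelihood test of edgeR with the animal as block, and calls needed an adjusted p (Benjamini-Hochberg) under 0.05 together with a change of at least 2-fold. With a filter of 1 CPM in 3 of 6 libraries, 1 of 19 HOX genes was called at 0 h, HOXA7, where 4.04% of all tested genes were called. At 8 h it was 1 of 19, HOXA13, where 4.93% of all genes were. Both genes reached 1 CPM in 5-month libraries only at those times, so they could enter the test only where they differed, and these counts are not read further. With a filter of 10 reads in 3 of 6 libraries, 26 of the 34 windows were tested. Of these, 4 were called at 0 h, all of them HOXA genes that were lower at 16 months, where 1.36% of all genes were called lower. At 8 h, 2 of 26 were called, again HOXA genes that were lower, where 1.78% of all genes were. The count at 0 h was 0 without animal 1 and 1 without animal 2 or animal 3, and at 8 h it was 1 without animal 1 or animal 3.

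HOXA10, a gene of the hindlimb, uterus and lumbar trunk, differed most. It stood at 0.700, 0.791 and 0.502 CPM in the 5-month cultures of animals 1, 2 and 3 at 0 h, against 0.222, 0.118 and 0.193 CPM in the 16-month cultures. At 8 h the values were 0.708, 0.721 and 0.454 CPM against 0.168, 0.122 and 0.134 CPM. Every 5-month library was above every 16-month one. HOXA10 was 3.98-fold lower at 16 months at 0 h, a log2 difference of -1.99 with a standard error (SE) of 0.36 (edgeR, adjusted p = 0.0211), and 4.68-fold lower at 8 h, with -2.23 (SE 0.33, edgeR, adjusted p = 0.0105). Without animal 1 or animal 3 the adjusted p at 0 h was 0.0894 or 0.0591 (edgeR), while at 8 h it stayed under 0.05 whichever animal was left out. These values rest on few reads, 45 to 101 in the 5-month and 9 to 20 in the 16-month libraries at 0 h and 8 h.

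HOXA13 and HOXA11 are the posterior end of the cluster. HOXA13 stood at 0.778, 0.751 and 0.609 CPM in 5-month libraries, against 0.344, 0.341 and 0.322 CPM in 16-month libraries at 0 h, and the groups did not overlap. Its level at 16 months was 2.26-fold lower at 0 h (log2 -1.18, SE 0.24, edgeR, adjusted p = 0.0277) and 2.23-fold lower at 8 h (log2 -1.16, edgeR, adjusted p = 0.0169). Without any 1 animal the adjusted p of HOXA13 at 0 h was between 0.077 and 0.12 (edgeR), and at 8 h it was 0.0758 without animal 1 and 0.0802 without animal 3. HOXA11 stood at 1.50, 1.37 and 0.950 CPM against 0.499, 0.551 and 0.683 CPM at 0 h, and it fell by 1.23 on the log2 scale (SE 0.28, edgeR, adjusted p = 0.0396), with an adjusted p of 0.161 without animal 1 and 0.0901 without animal 2. At 8 h HOXA11 overlapped between the ages, with 2.19, 1.44 and 1.21 CPM against 1.09, 1.23 and 1.33 CPM (log2 -0.48, edgeR, adjusted p = 0.244).

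HOXA7 and HOXA9 lie in the middle of the cluster and take part in patterning the trunk. HOXA7 stood at 1.30, 1.41 and 1.66 CPM in 5-month libraries, against 0.865, 0.486 and 0.915 CPM in 16-month libraries at 0 h, without overlap. It was 2.11-fold lower at 16 months with the filter of 10 reads (log2 -1.08, edgeR, adjusted p = 0.0351), with an adjusted p of 0.0664 to 0.134 when any 1 animal was left out, and at 8 h its log2 difference was -1.10 (edgeR, adjusted p = 0.0601). At 8 h the adjusted p of HOXA7 was 0.0121 with the likelihood-ratio test of edgeR, 0.0394 with DESeq2, 0.0499 with limma-voom and 0.0419 with library size alone, and it was 0.0505 to 0.19 when 1 animal was left out. HOXA9 stood at 4.30, 3.58 and 4.13 CPM against 2.12, 2.52 and 2.59 CPM at 0 h, and it fell by 0.83 on the log2 scale (SE 0.14, edgeR, adjusted p = 0.0157), less than 2-fold. Its adjusted p was 0.0524 without animal 1 and 0.0596 without animal 3 (edgeR). With HOXA7 it made 2 of 19 HOX genes under the 1 CPM filter that were lower past the adjusted p alone, where 12.1% of all genes were. Its 8 h values overlapped, with 4.08, 3.18 and 3.82 CPM against 2.53, 3.20 and 2.88 CPM (log2 -0.46, edgeR, adjusted p = 0.0646).

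**Figure D2:**
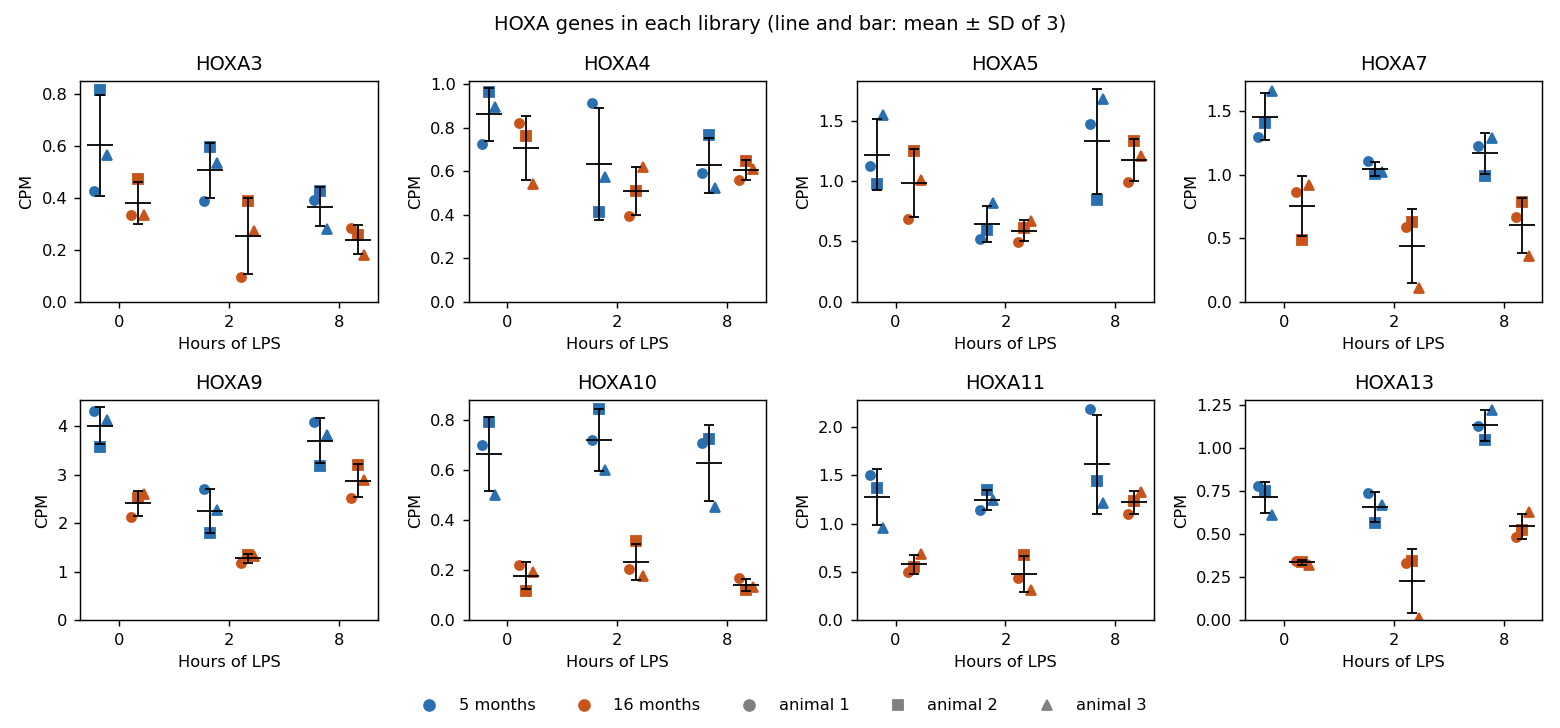
Level of 8 HOXA genes in every library, in CPM against hours of LPS, with 5-month cultures in blue, 16-month cultures in orange, marker shapes for the 3 animals and bars for the mean ± SD of 3 libraries. The 16-month points of HOXA7 and HOXA10 lie under all 5-month points at every time, whereas those of HOXA4 and HOXA5 overlap.

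All 8 tested HOXA genes had a negative log2 difference at 0 h and at 8 h, with medians of -0.96 and -0.59, where the medians of all genes were -0.0061 and -0.0043. The 8 signs were the same with library size alone as the scale, while HOXA4 at 8 h was 0.03 without animal 2. The anterior HOXA3, HOXA4 and HOXA5 did not pass the test. HOXA5 stood at 1.13, 0.978 and 1.55 CPM against 0.688, 1.25 and 1.01 CPM at 0 h, and its groups overlapped. The medians at 0 h were -0.02 in HOXB, -0.11 in HOXC and -0.11 in HOXD. By plain order of the values, 6 of the 26 HOX genes were lower in every 16-month library at 0 h, HOXA7, HOXA9, HOXA10, HOXA11, HOXA13 and HOXC11, where 7.37% of all genes were. At 8 h they were 5 of 26, HOXA7, HOXA10, HOXA13, HOXC11 and HOXC13, where 8.36% were. Over all times, every 16-month library was under every 5-month one for 2 of 26, HOXA7 and HOXA10, where 1.04% of all genes were. Higher in every 16-month library were 3 of 26 at 0 h, HOXB6, HOXB7 and HOXD4, where 26.0% of all genes were, and 4 of 26 at 8 h, HOXB2, HOXB3, HOXB6 and HOXD4, where 24.9% were. Over all times 0 of 26 were higher in this way, where 2.06% of all genes were. These orders use plain CPM, which is scaled by library size alone. With that scale 67.7% of all genes had a positive log2 difference at 0 h and 64.5% at 8 h. With the factors of the test the shares were 48.8% and 49.3%. HOXC11, a posterior gene outside HOXA, stood at 0.363, 0.681 and 0.672 CPM against 0.355, 0.184 and 0.180 CPM at 0 h (log2 -1.36, SE 0.46, edgeR, adjusted p = 0.106).

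Outside HOXA, HOXB2 was the gene that passed the adjusted p with age in the quasi-likelihood test on all animals, at 8 h. HOXB3 stood at 6.04, 5.18 and 6.05 CPM against 9.97, 6.63 and 8.45 CPM at 8 h, without overlap, and missed the threshold (log2 0.43, edgeR, adjusted p = 0.0601). HOXB3 passed it with library size alone as the scale (edgeR, adjusted p = 0.00524), with the likelihood-ratio test of edgeR (0.0241), limma-voom (0.0380) and DESeq2 (0.0482) and without animal 2 (edgeR, 0.0272), and had an adjusted p of 0.211 and 0.202 without animals 1 and 3. At 0 h HOXB3 had 7.08, 7.98 and 7.96 CPM against 8.91, 7.35 and 8.17 CPM, and the groups overlapped. HOXB2 overlapped between the ages at 0 h, with 7.30, 8.67 and 8.63 CPM against 8.70, 9.64 and 8.65 CPM. At 8 h it stood at 13.4, 9.44 and 11.0 CPM in 5-month libraries, against 20.4, 18.3 and 17.2 CPM in 16-month libraries, without overlap. It rose by 0.63 on the log2 scale between the ages at 8 h (SE 0.06, edgeR, adjusted p = 0.00324), a change of 1.55-fold that was not called. It was the 1 of 19 HOX genes that was higher past the adjusted p at 8 h, where 15.5% of all genes were. Lower past it were 1 of 19 HOX genes, where 1837 of 13055 genes were. With the likelihood-ratio test 3 of 19 were lower, where 1880 of 13055 genes were. Without animal 2 (quasi-likelihood test) it was 4 of 20, where 1259 of 13118 genes were. HOXD4 stood at 1.80, 1.52 and 1.84 CPM against 2.50, 2.38 and 2.35 CPM at 0 h (log2 0.39, edgeR, adjusted p = 0.0864, or 0.0429 with library size alone). HOXC8, the leading HOX gene, had 68.1, 62.1 and 72.3 CPM against 76.2, 62.9 and 73.1 CPM at 0 h, and the groups overlapped (log2 -0.03, SE 0.04, edgeR, adjusted p = 0.607, or log2 0.07 with library size alone).

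**Figure D3:**
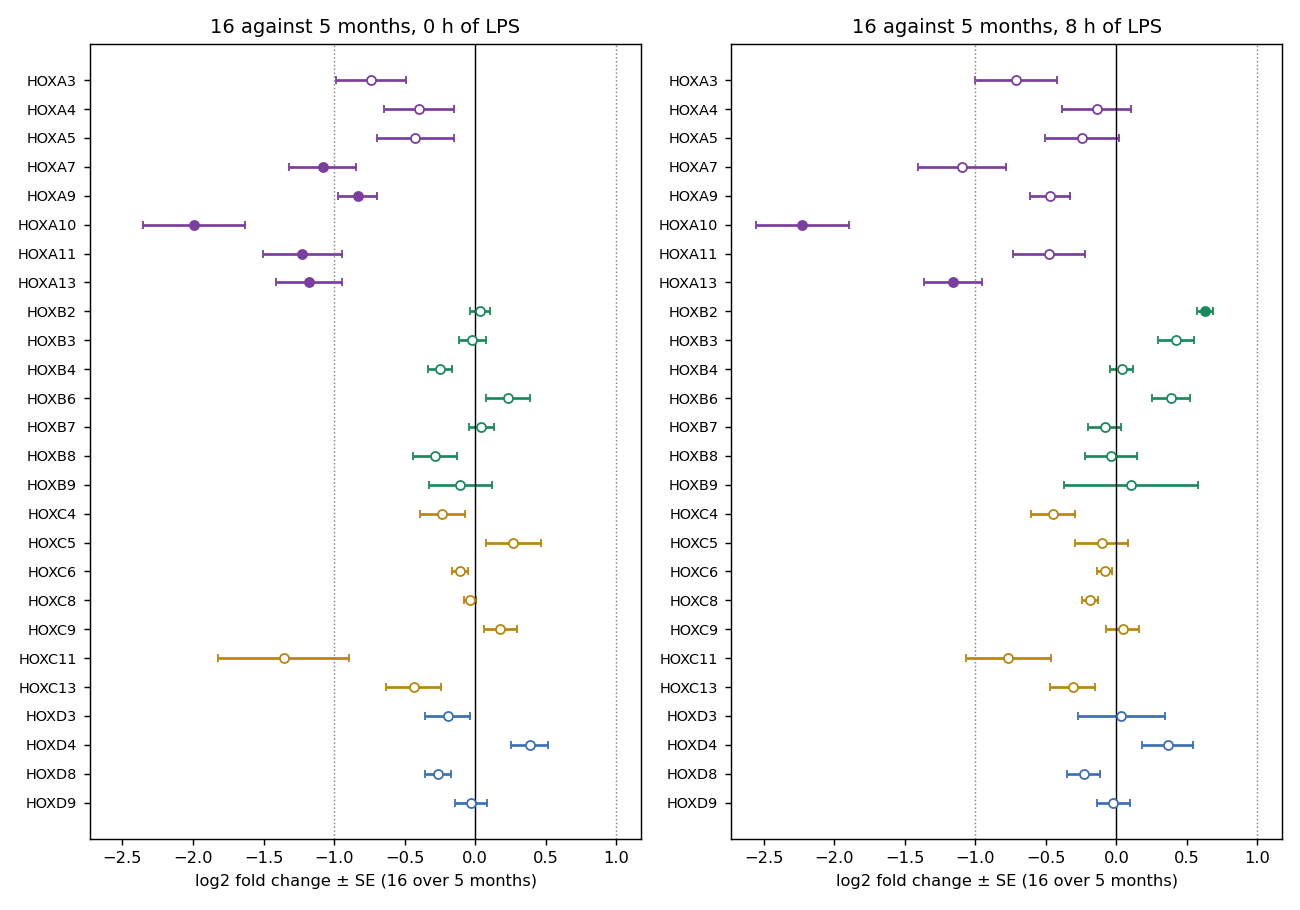
Log2 difference of 16 against 5 months with its SE for the 26 HOX genes with at least 10 reads, at 0 h and at 8 h; filled points have an adjusted p under 0.05 and dotted lines mark a 2-fold change. The HOXA points lie left of 0 at both times, with HOXA10 farthest at -1.99 and -2.23.

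At 2 h none of 19 HOX genes was called between the ages, as was true of 0% of all genes. At an unadjusted p under 0.05 (edgeR), 666 of 12856 genes passed, among them 2 of the 19 HOX genes. Changes of 4-fold set into simulated counts with the spread of this comparison were recovered for 0% of genes, so the test had no reach at 2 h. Without animal 3, whose 16-month library stood apart, 0 of 19 HOX genes were called, where 2.99% of all genes were. HOXA11 then had a log2 difference of -1.31 (edgeR, adjusted p = 0.0805) and HOXA9 one of -0.93 (edgeR, adjusted p = 0.166). HOXA10 stood at 0.719, 0.844 and 0.598 CPM at 5 months and at 0.203, 0.315 and 0.179 CPM at 16 months, without overlap.

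The exposure to LPS was followed within each culture. The 6 cultures came from 3 animals, and the test took their responses as independent. After 8 h no HOX gene was called, but many moved by less than 2-fold. Of 19 tested, 10 were lower past the adjusted p, where 30.2% of all genes were, and 3 were higher, where 28.3% were. With the 2-fold minimum 2.08% of all genes were called. The lower genes were all 4 tested HOXD genes, 4 of 6 HOXC genes and 2 of 6 HOXB genes, and none of the 3 tested HOXA genes was among them.

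HOXD8, a trunk gene and the highest of its cluster, stood at 6.82, 6.30 and 7.30 CPM at 0 h and at 4.54, 4.27 and 4.60 CPM at 8 h in 5-month cultures. At 16 months it had 6.96, 5.59 and 5.79 CPM and then 4.58, 3.81 and 3.90 CPM. It was lower in 6 of 6 cultures without overlap of the times, and it fell by 0.59 on the log2 scale (SE 0.05, edgeR, adjusted p = 6.45e-05). HOXD3, an anterior gene, fell by 0.92 (SE 0.15, edgeR, adjusted p = 0.000949), from 1.58, 1.72 and 1.50 CPM to 0.517, 1.06 and 0.857 CPM at 5 months. In the older cultures HOXD3 went from 1.77, 1.59 and 1.19 CPM to 0.916, 1.00 and 0.687 CPM. HOXD9 went from 5.20, 6.28 and 4.98 CPM to 3.87, 4.87 and 4.14 CPM at 5 months and from 6.40, 5.50 and 5.39 CPM to 4.40, 4.92 and 4.27 CPM at 16 months. It was lower in every culture and fell by 0.35 (edgeR, adjusted p = 0.00138) and HOXD4 by 0.45 (edgeR, adjusted p = 0.00347).

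HOXC8 had 57.7, 44.1 and 61.5 CPM in 5-month libraries, and 55.1, 45.7 and 52.0 CPM in 16-month libraries at 8 h, each below its own 0 h value. It fell by 0.40 on the log2 scale (SE 0.04, edgeR, adjusted p = 8.17e-05). The neighbouring HOXC6 had 26.0, 25.5 and 27.0 CPM at 0 h and 23.2, 15.8 and 22.3 CPM at 8 h in 5-month libraries. In 16-month libraries HOXC6 had 28.6, 23.4 and 26.5 CPM and then 24.0, 16.8 and 21.2 CPM. It was lower at 8 h in every culture and fell by 0.36 (edgeR, adjusted p = 0.000956), HOXC9 by 0.23 (edgeR, adjusted p = 0.00831) and HOXC5 by 0.34 (edgeR, adjusted p = 0.027). HOXC5 was lost without the 16-month culture of animal 2 or animal 3 (edgeR, adjusted p = 0.0844 and 0.0745). HOXC4 did not pass, with a log2 change of -0.10 (edgeR, adjusted p = 0.133). It had 11.0, 9.28 and 13.1 CPM at 0 h and 12.02, 8.17 and 13.7 CPM at 8 h at 5 months, and 9.48, 11.5 and 9.29 CPM and then 8.18, 9.67 and 8.35 CPM at 16 months, and the times overlapped. In HOXB, HOXB7 fell by 0.36 (edgeR, adjusted p = 0.000991) and HOXB8 by 0.34 (edgeR, adjusted p = 0.0147).

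HOXB2, HOXA11 and HOXB4 moved the other way. HOXB2 was higher at 8 h than at 0 h in 6 of 6 cultures and rose by 0.75 on the log2 scale (SE 0.14, edgeR, adjusted p = 0.00178), a change of 1.68-fold. HOXA11 rose by 0.67 (SE 0.16, edgeR, adjusted p = 0.00785) and was higher in 6 of 6 cultures. HOXB4 rose by 0.29 (SE 0.08, edgeR, adjusted p = 0.0129), in 5 of 6 cultures. It went from 5.90, 4.84 and 5.64 CPM to 7.21, 4.77 and 6.42 CPM at 5 months and from 5.07, 4.28 and 5.44 CPM to 7.71, 5.38 and 7.14 CPM at 16 months. With the filter of 10 reads HOXA13 also rose by 0.67 (edgeR, adjusted p = 0.00415), from 0.322 to 0.778 CPM at 0 h to 0.484 to 1.22 CPM at 8 h, and HOXA3 fell by 0.68 (edgeR, adjusted p = 0.017), with a window that overlaps HOXA4. Paralogs 1 to 3, of which HOXB2 was the highest, held 9.54% ± 0.903 (SD, n = 3) of the per-length HOX level at 0 h and 12.5% ± 0.882 at 8 h in 5-month cultures, and 10.4% ± 0.747 and 19.4% ± 0.885 in 16-month cultures.

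**Figure D4:**
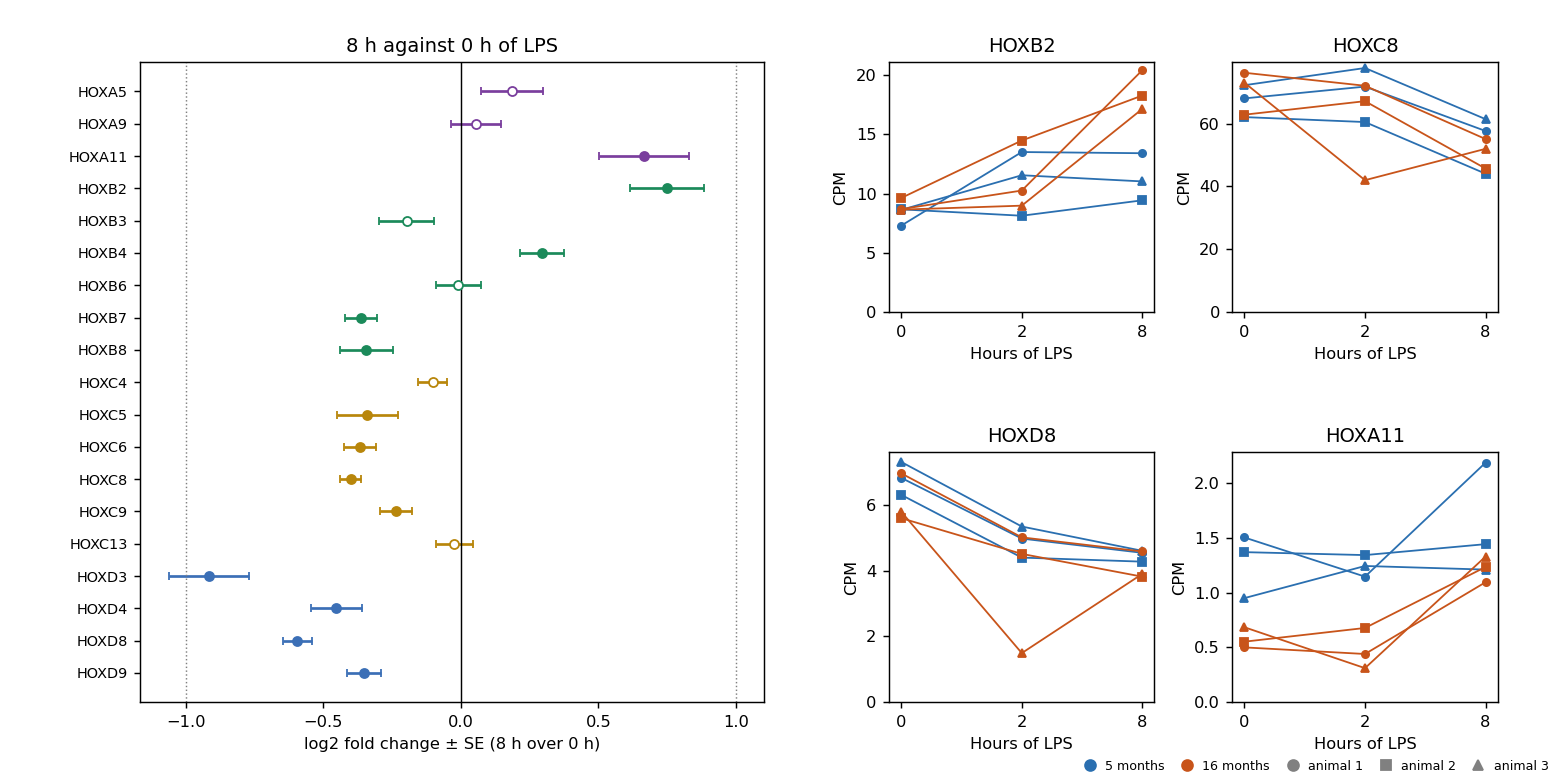
Log2 change at 8 h against 0 h of LPS with its SE for the 19 tested HOX genes, and the CPM of HOXB2, HOXC8, HOXD8 and HOXA11 at 0, 2 and 8 h with 1 line per culture (blue 5 months, orange 16 months); filled points have an adjusted p under 0.05 and dotted lines mark a 2-fold change. From 0 h to 8 h HOXC8 and HOXD8 go down and HOXB2 and HOXA11 go up in all 6 cultures.

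At 2 h of LPS none of 18 HOX genes was called, where 2.40% of all genes were. HOXA9 alone passed the adjusted p among them, lower in 6 of 6 cultures with a log2 change of -0.71 (SE 0.12, edgeR, adjusted p = 0.0192), where 2.79% of all genes were lower. Its adjusted p was between 0.0781 and 0.103 when any 1 culture other than the 16-month culture of animal 3 was left out. It went from 4.30, 3.58 and 4.13 CPM to 2.70, 1.79 and 2.26 CPM in 5-month cultures and from 2.12, 2.52 and 2.59 CPM to 1.18, 1.34 and 1.32 CPM in 16-month cultures. Without the 16-month culture of animal 3, 9 of 19 HOX genes were lower past the adjusted p, where 20.7% of all genes were, and 2 were higher, where 20.0% were. HOXA9 then fell by 0.78 (edgeR, adjusted p = 0.000448), HOXD3 by 0.94 (edgeR, adjusted p = 0.017) and HOXD4 by 0.64 (edgeR, adjusted p = 0.00213), and the higher genes were HOXB2 with 0.48 (edgeR, adjusted p = 0.016) and HOXC8 with 0.11 (edgeR, adjusted p = 0.0106). Over all cultures HOXC8 had a log2 change of 0.07 at 2 h, or -0.10 with library size alone. In the library that stood apart, HOXC9 was at 18.1 CPM against 4.55 to 8.76 CPM in the other 17, and HOXD8 at 1.49 CPM against 3.81 to 7.30 CPM.

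An interaction term of age and time, with the culture as block, asked whether LPS moved HOX genes differently at the 2 ages. The fit took the responses of the 2 cultures of an animal as independent and did not pair them. At 8 h, 0 of 19 HOX genes were called, where 0.270% of all genes were. HOXB2 had a log2 difference in response of 0.61 (SE 0.17, edgeR, adjusted p = 0.115), its rise being larger at 16 months in the plain values. HOXA11 had 0.77 (edgeR, adjusted p = 0.0952) and HOXB3 0.45 (edgeR, adjusted p = 0.116). At 2 h, 0 of 18 HOX genes and 0% of all genes were called. With an unadjusted p under 0.05 (edgeR) there were 168 of 12859 genes at 2 h, and 0 of the 18 HOX genes. Without the 16-month culture of animal 3 there were 1144 such genes of 12879, and 0 of 19 HOX genes. In that fit 0 of 19 HOX genes and 3 of 12879 genes in all were called.

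The clusters also hold windows between genes, whose reads fall outside the gene windows. Which transcripts these reads came from was not tested. Of 40 such windows 10 had a mean of at least 1 CPM, and the 40 together held 47.2 to 82.6 CPM, the lowest sum in the library that stood apart. The window from HOXC11 to HOXC12 (chromosome 5, 26218210 to 26234885) held the most reads, with a mean of 24.9 CPM. Its level was 8.82 CPM in the library that stood apart and 17.1 to 35.2 CPM in the other 17. In the human genome this interval holds the long non-coding RNA HOTAIR, and no such gene is annotated in the files. It fell by 0.50 on the log2 scale at 8 h of LPS (edgeR, adjusted p = 9.08e-05). Its log2 difference between 16 and 5 months was -0.29 at 0 h (edgeR, adjusted p = 0.0614) and -0.44 at 8 h (edgeR, adjusted p = 0.0151).

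Among windows between HOXA genes, 2 were tested and both were lower at 16 months. In a fit over gene windows and between-gene windows, 2 of 9 tested between-gene windows were called at 0 h, both lower, where 1.21% of all windows were. At 8 h 2 of 10 were called, both lower, where 1.50% were. That fit scaled counts to the sum over all windows. On that scale the window from HOXA13 to LOC100848654 at 0 h reached 1 CPM in 5-month libraries only. The same held for the window from HOXA7 to LOC100848736 at 8 h. They could enter the test only where they differed, so these counts are not read further. The window from HOXA7 to LOC100848736 (chromosome 4, 69342502 to 69348712) stood at 2.93, 2.54 and 2.56 CPM at 5 months and at 1.53, 1.47 and 1.07 CPM at 16 months at 0 h, without overlap. It fell by 1.08 on the log2 scale (edgeR, adjusted p = 0.00976). The window from HOXA13 to LOC100848654 (chromosome 4, 69298938 to 69310926) stood at 3.35, 3.06 and 4.60 CPM against 1.71, 1.92 and 1.69 CPM at 8 h and fell by 1.12 (edgeR, adjusted p = 0.0105). At 0 h it stood at 1.96, 2.49 and 2.37 CPM against 0.788, 0.788 and 0.464 CPM, with a log2 difference of -1.84 (edgeR, adjusted p = 0.0083), though it reached 1 CPM in 5-month libraries only. After 8 h of LPS none of 9 between-gene windows was called, where 1.96% of all windows were. The window from HOXA13 to LOC100848654 rose by 0.97 (edgeR, adjusted p = 0.00155) and that from HOXB2 to HOXB1 by 0.89 (edgeR, adjusted p = 0.00164), in the direction of HOXA13 and HOXB2.

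**Figure D5:**
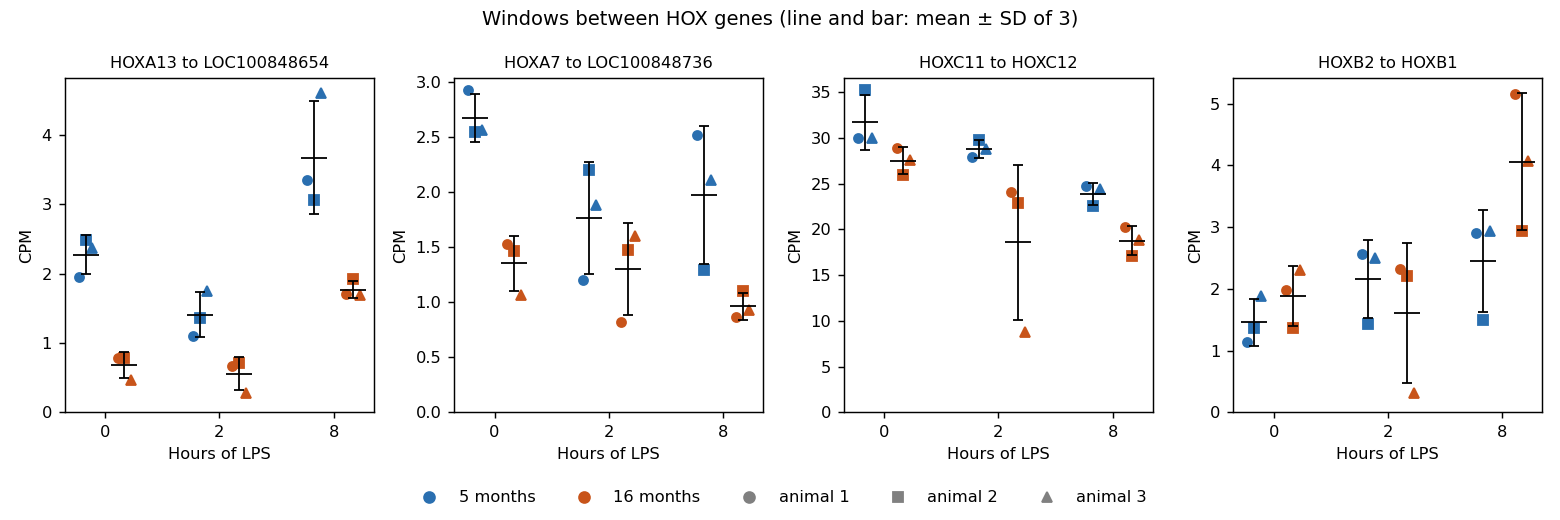
Level of 4 between-gene windows of the HOX clusters in every library, in CPM against hours of LPS, with 5-month cultures in blue, 16-month cultures in orange and bars for the mean ± SD of 3 libraries. The windows beside HOXA13 and HOXA7 have all 16-month points below the 5-month points at 0 h and 8 h.

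Other genes that give cells their position were taken as lists from general knowledge, and of 171 such genes and cell type markers 158 had a window. Among genes of limb and trunk position, 2 of 11 tested were called between the ages at 0 h and 3 of 11 at 8 h, all higher at 16 months, where 4.04% and 4.93% of all genes were called in either direction. The median log2 difference of the list was -0.40 at 0 h and -0.20 at 8 h, against -0.01 for all genes. TBX2, a repressor in limb and flank, stood at 0.0778, 0.0783 and 0.215 CPM at 5 months and at 1.53, 1.88 and 1.71 CPM at 16 months at 0 h (log2 3.72, edgeR, adjusted p = 0.00354). LMX1B, which specifies the dorsal side of the limb, stood at 0.194, 0.149 and 0.206 CPM against 1.93, 1.76 and 1.93 CPM (log2 3.26, edgeR, adjusted p = 0.00101). LMX1B was named after its values were seen, its mean being under 1 CPM. Both genes reached 1 CPM in 16-month libraries only at 0 h, so they entered the test only where they differed. The count of this list at 0 h is therefore not read further. TBX3, a relative of TBX2, stood at 4.70, 3.09 and 3.59 CPM against 11.8, 7.71 and 9.65 CPM at 8 h, without overlap, and rose by 1.26 (edgeR, adjusted p = 0.0021).

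The genes that mark forelimb, hindlimb and ventral skin were read whatever their values. TBX5, a forelimb gene, stood at 2.83, 1.11 and 2.73 CPM at 5 months and at 1.71, 1.60 and 1.59 CPM at 16 months at 0 h, and the groups overlapped (log2 -0.45, edgeR, adjusted p = 0.323). TBX4, a hindlimb gene, did not exceed 0.0387 CPM, and PITX1, which acts before it, lay between 0.122 and 1.28 CPM. PITX1 stood at 1.28, 0.994 and 1.25 CPM against 0.721, 0.236 and 0.348 CPM at 0 h, without overlap, and with the filter of 10 reads it fell by 1.64 (edgeR, adjusted p = 0.0227). EN1, a gene of ventral limb skin and of trunk dermis that the files name LOC529707, stood at 7.49 CPM in the library that stood apart and at 20.5 to 44.4 CPM in the other 17. It fell by 0.40 with age at 0 h (edgeR, adjusted p = 0.0309) and by 0.59 after 8 h of LPS (edgeR, adjusted p = 7.5e-05). Among 8 tested genes of face and neural crest, 2 were called between the ages at 0 h and at 8 h, 1 higher and 1 lower, where 4.04% and 4.93% of all genes were called. The median of the list was -0.16 at 0 h and 0.11 at 8 h. TFAP2A, a crest and skin factor, stood at 1.27, 2.29 and 1.30 CPM against 6.05, 11.9 and 7.09 CPM at 0 h and rose by 2.26 (edgeR, adjusted p = 0.000675). PAX3, named after its values were seen, stood at 1.65, 2.61 and 1.33 CPM against 0.388, 0.249 and 0.155 CPM and passed the filter through 5-month libraries (log2 -2.90, edgeR, adjusted p = 0.00422). The count of the face and crest list at 0 h includes PAX3 and is not read further.

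Among the partners and regulators of HOX genes, few moved 2-fold with age. Of the TALE cofactors 0 of 7 were called at 0 h, although MEIS1, named after its values were seen, rose by 0.57 (edgeR, adjusted p = 0.0105). Of 18 Polycomb genes 1 was called at both 0 h and 8 h, where 4.04% and 4.93% of all genes were, and the median of the list was -0.06 and -0.05. It was PHF19, a subunit that helps the complex reach chromatin, which stood at 12.2, 9.95 and 14.6 CPM against 32.4, 22.7 and 33.6 CPM at 0 h and rose by 1.17 (edgeR, adjusted p = 0.000737). EZH2, the methyltransferase of the complex, stood at 12.6, 9.64 and 12.9 CPM against 26.0, 19.9 and 27.9 CPM at 0 h and rose by 0.97 (edgeR, adjusted p = 0.00071), just under 2-fold, and was also named after its values were seen. None of 10 Trithorax genes and demethylases, 0 of 8 inducers of HOX genes (retinoic acid, FGF and related signals) and 0 of 13 genes that flank the clusters were called at 0 h. The 4 windows of microRNA genes of the clusters held at most 0.0194 CPM together and were not tested. Among 14 fibroblast markers POSTN was called, lower at 16 months by 2.72 on the log2 scale at 0 h (edgeR, adjusted p = 0.00924), and its part in the HOXA difference was not tested. Summed smooth muscle, keratinocyte and macrophage markers overlapped between the ages at one of 0 h and 8 h and not at the other. So did the summed melanocyte and Schwann markers. Smooth muscle markers summed to 6630 to 10042 CPM at 5 months and 5250 to 6920 CPM at 16 months at 0 h, with overlap, and to 7018 to 8712 CPM against 4244 to 6971 CPM at 8 h, without. At 8 h 1 of 6 tested was called, DES, which fell by 2.34 (edgeR, adjusted p = 0.0038), and at 0 h 0 of 5. Keratinocyte markers summed to 1.20 to 1.63 CPM against 2.14 to 3.02 CPM at 0 h, without overlap, and to 1.30 to 1.79 CPM against 1.22 to 3.05 CPM at 8 h. Macrophage markers summed to 1.68 to 2.21 CPM against 1.80 to 2.36 CPM at 0 h, with overlap, and to 1.50 to 1.90 CPM against 2.29 to 3.29 CPM at 8 h. No keratinocyte or macrophage marker reached the filter at 0 h or 8 h. Melanocyte and Schwann markers summed to 19.3 to 22.1 CPM against 20.1 to 23.7 CPM at 0 h, with overlap. At 8 h they summed to 17.08 to 20.02 CPM against 20.04 to 22.60 CPM, without overlap, and 0 of 3 tested were called. Endothelial markers overlapped at both times, with 1.93 to 3.06 CPM against 2.56 to 3.70 CPM at 0 h and 2.73 to 3.39 CPM against 3.29 to 4.13 CPM at 8 h. Their part in the HOXA difference was not tested.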

How the data were processed

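The authors matched single-end reads to the UMD 3.1 assembly with NextGENe 2.3.4 and deposited, per library, raw read counts of windows, each either a gene including its introns or a stretch between genes. The deposited files also give the highest coverage of any base in a window, a signal value used here in 1 alternative. Use of the read strand is not given in the sources used here, 3905 gene windows overlap another, and counts came to 1.54 to 1.76 per matched read.

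Counts of gene windows were scaled to CPM by their sum. Tests used edgeR 4.0.16 (quasi-likelihood, TMM factors, two-sided, Benjamini-Hochberg over all tested genes) in R 4.3.3, with the animal as block for age, at each time, and the culture as block for LPS. Genes needed 1 CPM in 3 of 6 or 6 of 12 libraries of a fit. Because many HOX genes lie under that level, the filter of 10 reads, planned as an alternative, is reported beside it. Fold changes come from the fit, and levels per library are plain CPM.

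Same-numbered 5-month and 16-month libraries come from the same animal by the labels. Their deviations from the group means correlated across genes at 0.357, 0.684 and 0.399 (0 h), 0.101, 0.216 and -0.0221 (2 h) and 0.441, 0.587 and 0.259 (8 h) for animals 1, 2 and 3. On simulated counts, 4-fold changes were recovered for 99.5% of genes for age at 0 h, 0% at 2 h and 100% at 8 h, and for 92.0% (2 h) and 100% (8 h) for LPS. P-values measure the spread between these cultures, and limits from 0 reads cover counting error only.

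Given by library at 0 h, 8 h or both are HOX genes called in a comparison and the 3 highest of each cluster per kb, and of the other lists the members called with age and a mean of at least 1 CPM, with TBX5, TBX4, PITX1 and EN1 regardless. HOX genes were also named where they passed the adjusted p alone. The HOX genes and all lists were chosen with earlier results of these data known. Alternatives were other size factors, other filters, the likelihood-ratio test, DESeq2 1.42.0, limma-voom 3.58.1, no fold minimum, no block and leaving out each culture or animal. No genome of the UMD 3.1 assembly was used here, so no sequence is shown. Some genes of the lists are not reported here.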

Additional observations from a re-analysis of the deposited data

Results flagged for a closer look

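HOXA9 moved in opposite directions after 8 h of LPS at the 2 ages. It was lower at 8 h than at 0 h in each of the 3 cultures taken at 5 months, going from 4.30, 3.58 and 4.13 CPM to 4.08, 3.18 and 3.82 CPM in animals 1, 2 and 3. It was higher in each of the 3 cultures taken at 16 months, going from 2.12, 2.52 and 2.59 CPM to 2.53, 3.20 and 2.88 CPM. The log2 difference in response was 0.38 (SE 0.13) and did not pass the interaction test (edgeR, adjusted p = 0.161). Over the alternatives tried, its adjusted p lay between 0.141 and 0.612.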

How the results depend on the processing

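No HOX gene that passed the adjusted p with age changed sign with library size only, whereas with age at 0 h HOXB3 went from -0.02 to 0.08, HOXC8 from -0.03 to 0.07 and HOXD9 from -0.03 to 0.07. The number of HOX genes called with age at 0 h was 1. It was 0 with library size only, 0 with no replicate block, 4 with no filter, 4 with the filter of 10 reads, 2 with no fold minimum, and 0 to 1 when 1 animal was left out. At 8 h it was also 1, and became 2 with no filter, 2 with the filter of 10 reads and 2 with no fold minimum, 0 to 2 when 1 animal was left out, and 0 in a fit that added between-gene windows. With the filter of 10 reads, leaving out 1 animal gave 0 to 1 of the 4 calls at 0 h and 1 to 2 of the 2 calls at 8 h, which became 3 with HOXA7 under limma-voom, DESeq2 and the likelihood-ratio test. Without the replicate block 3 of these 4 were called at 0 h, HOXA7 being lost (adjusted p = 0.0661). For LPS at 2 h the count of 0 became 1 with the likelihood-ratio test and 1 with DESeq2, HOXD3 in each case, and 1 with no fold minimum. For LPS at 8 h it became 13 with no fold minimum. The interaction of HOXB2 at 8 h had an adjusted p of 0.0255 with the likelihood-ratio test and 0.0237 with DESeq2. Apart from these constructions the causes were not tested.

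As a share of the HOX level, HOXC took 67.0% and HOXD 7.85% without division by length, and HOXD took 12.9% at 0 h only. By the highest coverage of any base, HOXA took 7.34%, HOXB 29.8% and HOXC 52.4%. The fit with between-gene windows, the coverage shares and the repeats of the filter of 10 reads were chosen after seeing the data. With library size only, the median log2 change of all genes was 0.09 with age at 0 h and -0.18 with LPS at 2 h. Genes under 1 CPM, such as HOXA3, HOXA10, HOXA13 and HOXC11, rest on few reads.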
